A study of Mus musculus with 3 samples.

Results

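Cd36-high Kupffer barcodes are the 1590 of 9081 Kupffer barcodes (17.5%) in which 2 or more unique molecular identifiers (UMIs, each standing for 1 captured transcript) of Cd36 were counted. A barcode, which marks 1 droplet and in most cases 1 cell, was kept with at least 1000 UMIs, at least 300 genes and at most 10% of UMIs from mitochondrial genes, and 9842 barcodes passed. It was taken as a Kupffer barcode where Clec4f, Cd5l, C1qa, C1qb and C1qc together held at least 1% of its UMIs. The Cd36-high barcodes numbered 327 of 2537 in the chow library, 587 of 3820 in the library of 3 days of ethanol and 676 of 2724 in the library of 10 days of ethanol. The reference was the Kupffer barcodes of the same library with 0 Cd36 UMIs (1774, 2426 and 1290), each Cd36-high barcode being paired with 1 of these whose depth lay within 10%. Members were thus chosen by their Cd36 UMI count and by the share of the 5 Kupffer genes, which are given as descriptions and were not tested.

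Macrophages that live in the sinusoids of the liver, known as Kupffer cells, clear lipoproteins, dying cells and bacteria from portal blood. Cd36 (ENSMUSG00000002944, chromosome 5, 17781690 to 17888801 in GRCm38, minus strand) encodes a class B scavenger receptor that binds oxidised lipoproteins and long-chain fatty acids and helps bring fatty acids into the cell. The acids can be released from lipoproteins by lipoprotein lipase (Lpl), stored in droplets coated by perilipin 2 (Plin2), burned in mitochondria, or act as ligands of PPAR nuclear receptors, of which Cd36 is a known target. The liver's sinusoidal endothelial cells also express Cd36.

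The study compared Kupffer cells of male mice aged 8 weeks on normal chow with those of mice on the Lieber-DeCarli liquid diet holding 5% ethanol for 3 or 10 days, with 1 mouse for each condition. The control diet was solid chow, so ethanol, the liquid diet and the animal cannot be told apart. Live cells high for F4/80 and intermediate for CD11b were sorted from the non-parenchymal fraction of perfused, collagenase-digested liver, and droplet libraries reading the 3′ end of transcripts were sequenced. Strain and genotype are not given in the sources used here.

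The libraries held 16538895 to 21650747 UMIs over all barcodes, and 2767, 4061 and 3014 barcodes passed the limits on chow, at 3 days and at 10 days, where the study gives 3000 to 5000 cells per sample. Of these, 90.4% to 94.1% were Kupffer barcodes. Median depth differed between the libraries, at 4675, 3117 and 3080 UMIs per Kupffer barcode. Between 7 and 17 Kupffer barcode sequences were shared by any 2 libraries, and 1 was Cd36-high in both the chow and the 3-day library.

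Cd36-high barcodes took a larger share of Kupffer barcodes at 10 days of ethanol than on chow, with 3 days between them. The share was 12.9% on chow (95% exact Clopper-Pearson interval 11.6% to 14.3%), 15.4% (14.2% to 16.5%) at 3 days and 24.8% (23.2% to 26.5%) at 10 days. Intervals here cover counting error only, and with 1 mouse per diet no test between diets was possible. In T and NK barcodes, which should lack Cd36, 2 of 138 (1.45%), 1 of 96 (1.04%) and 2 of 163 (1.23%) held 2 or more Cd36 UMIs, at median depths of 3747, 2615.5 and 2467 UMIs.

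The share was higher in deeper barcodes of each library, so the limit of 2 UMIs selects on depth as well as on level. Among barcodes of 2000 to 3000 UMIs it was 5.73% on chow (20 of 349), 11.7% at 3 days (125 of 1069) and 18.1% at 10 days (139 of 767). Among barcodes of 6000 to 9000 UMIs it was 17.2% (107 of 621), 27.4% (63 of 230) and 49.7% (81 of 163). When each barcode was thinned to 1500 UMIs the shares were 2.27% (1.71% to 2.94%), 5.03% (4.33% to 5.80%) and 8.24% (7.19% to 9.39%), with 112, 318 and 224 shallower barcodes left out, and 0 of 136, 0 of 96 and 1 of 157 T and NK barcodes reached 2 UMIs, where a count of 0 allows shares of up to 2.21% and 3.12%. The order of the 3 libraries was thus the same at matched depth. The summed level of Cd36 over all Kupffer barcodes had that order too, with 106, 186 and 288 counts per 1e+06 UMIs (CPM), against 14.8, 16.5 and 42.4 CPM in T and NK barcodes.

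**Figure D1:**
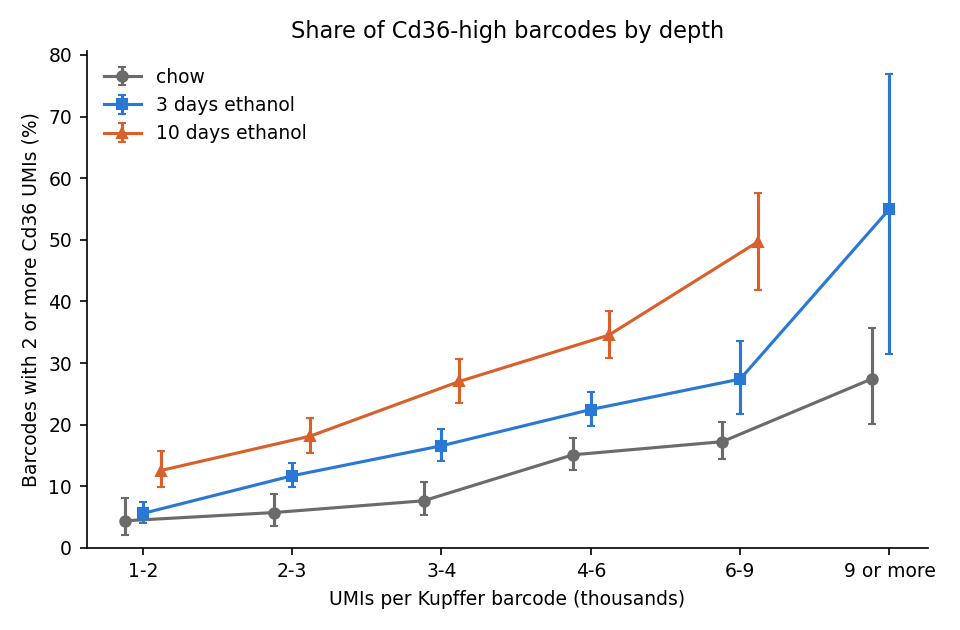
Share of Kupffer barcodes with 2 or more Cd36 UMIs (percent, y axis) by total UMIs per barcode (x axis, in units of 1000 UMIs) for the 3 libraries, with exact 95% binomial intervals. In each bin below 9000 UMIs the share is lowest on chow and highest at 10 days of ethanol, and above 9000 UMIs no point is drawn for 10 days.

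The limit cut through a continuous range of counts. Most members sat just inside it, with exactly 2 Cd36 UMIs in 188, 346 and 372 barcodes, and 436, 807 and 758 Kupffer barcodes sat just outside with exactly 1. Counts of 3 or 4 were found in 116, 196 and 254 barcodes and counts of 5 or more in 23, 45 and 50, and the highest count was 8, 14 and 10. If each library's Cd36 UMIs were shared evenly over its Kupffer barcodes by depth, 268, 531 and 684 barcodes would hold 2 or more, against the 327, 587 and 676 counted, and 1.94, 6.37 and 22.9 would hold 5 or more, against 23, 45 and 50. The number of members was thus 1.22, 1.11 and 0.988 times that of an even share, near it at 10 days, while barcodes with 5 or more exceeded it in each library. The squared deviation of Cd36 counts from an even share of each library's Cd36 UMIs by depth was 1.85, 1.77 and 1.53 times the mean count, where counting error alone gives a value near 1. That was more than for Plin2 (1.12, 1.12 and 1.16) and Timd4 (1.24, 1.27 and 1.18). Mrc1 (1.82, 1.85 and 1.93) and Marco (12.3, 8.19 and 9.40) had more UMIs, 10793 and 4121 on chow against 1332 of Cd36. The ratio grows with the level of a gene where barcodes differ, so it does not rank Cd36 against Mrc1 and Marco.

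Members were deeper than the Kupffer barcodes without Cd36 UMIs, with medians of 5629, 3842 and 3768 against 4337, 2900 and 2733 UMIs. After pairing on depth counted without Cd36, 325, 584 and 661 pairs remained, with medians of 5623 against 5619, 3819.5 against 3817 and 3712 against 3704 UMIs. Members left without a partner numbered 2, 3 and 15. The summed UMIs without Cd36 were 1956190 against 1951331, 2396365 against 2387722 and 2588093 against 2487604, so at 10 days the members remained the deeper class, with a median of 1679 genes against 1631. In the paired members and their partners, the median share of UMIs from the 5 Kupffer criterion genes lay between 2.12% and 2.38% in each library. It differed by little between the classes, for example 2.36% and 2.38% on chow. Pairs were not matched on the mitochondrial share of UMIs, whose median was somewhat higher in the paired members of each library. This median was 5.05% against 4.85% on chow, 5.11% against 4.86% at 3 days and 6.20% against 6.12% at 10 days.

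The other markers attached to this class, Plin2 and Mrc1, were higher in members by small ratios, and neither was called. Plin2 (ENSMUSG00000028494, chromosome 4, 86648386 to 86670060) stood at 109 CPM in the members against 102 in their partners on chow, 237 against 201 at 3 days and 279 against 247 at 10 days. It was higher in 3 of 3 libraries, with ratios of 1.07 (0.880 to 1.31), 1.18 (1.04 to 1.34) and 1.13 (1.01 to 1.26), and at least 1 Plin2 UMI was counted in 41.5%, 57.7% and 62.8% of members against 44.3%, 54.6% and 58.2% of partners. The mean log2 difference of 0.18 (SE 0.06) had an unadjusted p of 0.0039 in edgeR. It did not pass after adjustment over all genes tested (adjusted p = 0.414). Over the alternative settings the difference ranged from -0.069 to 0.34. The lowest value came from the 10, 26 and 72 pairs without barcodes holding 2 or more UMIs of another cell type's list. The background in T and NK barcodes was 13%, 10.4% and 16.6%.

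Mrc1 (ENSMUSG00000026712, chromosome 2, 14229392 to 14332057), the mannose receptor, stood at 777 against 747 CPM on chow, 1229 against 1116 at 3 days and 1349 against 1213 at 10 days. It was higher in 3 of 3 libraries, with ratios of 1.04 (0.968 to 1.12), 1.10 (1.04 to 1.16) and 1.11 (1.06 to 1.17). The log2 difference of 0.12 (SE 0.04) had an unadjusted p of 0.0025 in edgeR and did not pass after adjustment (adjusted p = 0.352). Over the alternative settings its highest value was 0.19. Against all Kupffer barcodes with 0 Cd36 UMIs, which were shallower and not matched on depth, Mrc1 was lower (-0.12, edgeR adjusted p = 0.0219). Nearly every barcode of either class held Mrc1, with 98.2%, 98.8% and 98.9% of members and 98.2%, 98.5% and 97.7% of partners. The class is therefore named here by its Cd36 count alone.

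Genes other than Cd36 were compared between the classes within each library, which gives 3 pairs of summed counts. Of 9357 genes tested, 25 (0.267%) were called in edgeR's quasi-likelihood test at an adjusted p under 0.05, 10 higher (0.107%) and 15 lower (0.16%) in Cd36-high barcodes. At an unadjusted p under 0.05 there were 287 higher (3.07%) and 328 lower (3.51%), and 1252 genes (13.4%) were higher in members in all 3 libraries and 1327 (14.2%) lower. Of all genes tested 4657 were above 0 and 4700 below, and the median log2 difference was -0.00. Of the 25, 18 met the rule for naming and 7 did not, being members of other-cell-type lists or a provisional gene. The diets differ between the pairs, so the spread over pairs includes any difference between diets.

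Lpl (ENSMUSG00000015568, chromosome 8, 68880491 to 68907448), the secreted lipase that frees fatty acids from lipoprotein triglyceride, had the lowest adjusted p among the genes that rose. Its level was 1611 CPM in members against 1310 in partners on chow, 2109 against 1634 at 3 days and 2720 against 2222 at 10 days. The members were higher in each library, and across libraries the classes overlapped, the members on chow lying below the partners at 3 days. The ratio was 1.23 (1.17 to 1.30), 1.29 (1.24 to 1.35) and 1.22 (1.18 to 1.27), and the mean log2 difference was 0.31 (SE 0.03, edgeR adjusted p = 8.3e-08). Lpl UMIs were found in nearly all barcodes, with 323 of 325 members and 319 of 325 partners on chow, and the richest barcode held 1.24% and 1.41% of the Lpl UMIs there.

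Marco (ENSMUSG00000026390, chromosome 1, 120474538 to 120505024), a class A scavenger receptor that binds bacteria, also rose. It stood at 383 against 265 CPM on chow, 385 against 270 at 3 days and 609 against 531 at 10 days, a log2 difference of 0.37 (SE 0.05, edgeR adjusted p = 1.72e-05). The members were higher in each of the 3 libraries, with the smallest ratio, 1.15 (1.07 to 1.23), at 10 days against 1.44 and 1.42, and without that library the log2 difference was 0.51. At least 1 Marco UMI was counted in 48.0%, 40.8% and 53.1% of members and in 44.9%, 32.9% and 46.3% of partners, against 15.9%, 9.38% and 13.5% of T and NK barcodes. Marco UMIs were concentrated, the 5 richest members on chow holding 21.1% of them.

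Of the other genes that rose by the naming rule, 2 encode proteins of cell contact and recruitment. Vcam1 (chromosome 3, 116109949 to 116129688), an adhesion molecule for leukocyte integrins, stood at 346 against 277 CPM on chow, 944 against 852 at 3 days and 275 against 189 at 10 days (log2 0.27, SE 0.05, edgeR adjusted p = 0.00328). The chemokine Ccl6 (chromosome 11, 83587882 to 83593087) stood at 990 against 858, 2064 against 1795 and 1315 against 1150 CPM (log2 0.19, SE 0.03, adjusted p = 0.00113). Both were higher in members of each library, and across libraries the classes overlapped. Without the 10-day library neither passed in edgeR (Vcam1 0.20, adjusted p = 0.179; Ccl6 0.19, adjusted p = 0.0685), and without the 3-day library Vcam1 was at 0.43.

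The remaining genes that rose by the rule were Vat1, a membrane protein of vesicles (log2 0.47, SE 0.09, adjusted p = 0.00698), Mgst1, a microsomal glutathione transferase (0.37), the serine protease inhibitor Serpinb6a (0.19) and the little-characterised BC005537 (0.15). Vat1 stood at 59.3 against 44.1 CPM on chow, 82.2 against 57.8 at 3 days and 97.4 against 69.9 at 10 days. These 4 were higher in members in 3 of 3 libraries, and none kept its call in edgeR under every omission of a library. Mgst1 and Serpinb6a lost it under each omission, with adjusted p of 0.0687 to 0.284 and 0.124 to 0.161, Vat1 without the 3-day (0.0523) or the 10-day library (0.132), and BC005537 without the 3-day (0.387) or the 10-day library (0.247). Without depth matching BC005537 was called lower (-0.11, edgeR adjusted p = 0.0256).

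**Figure D2:**
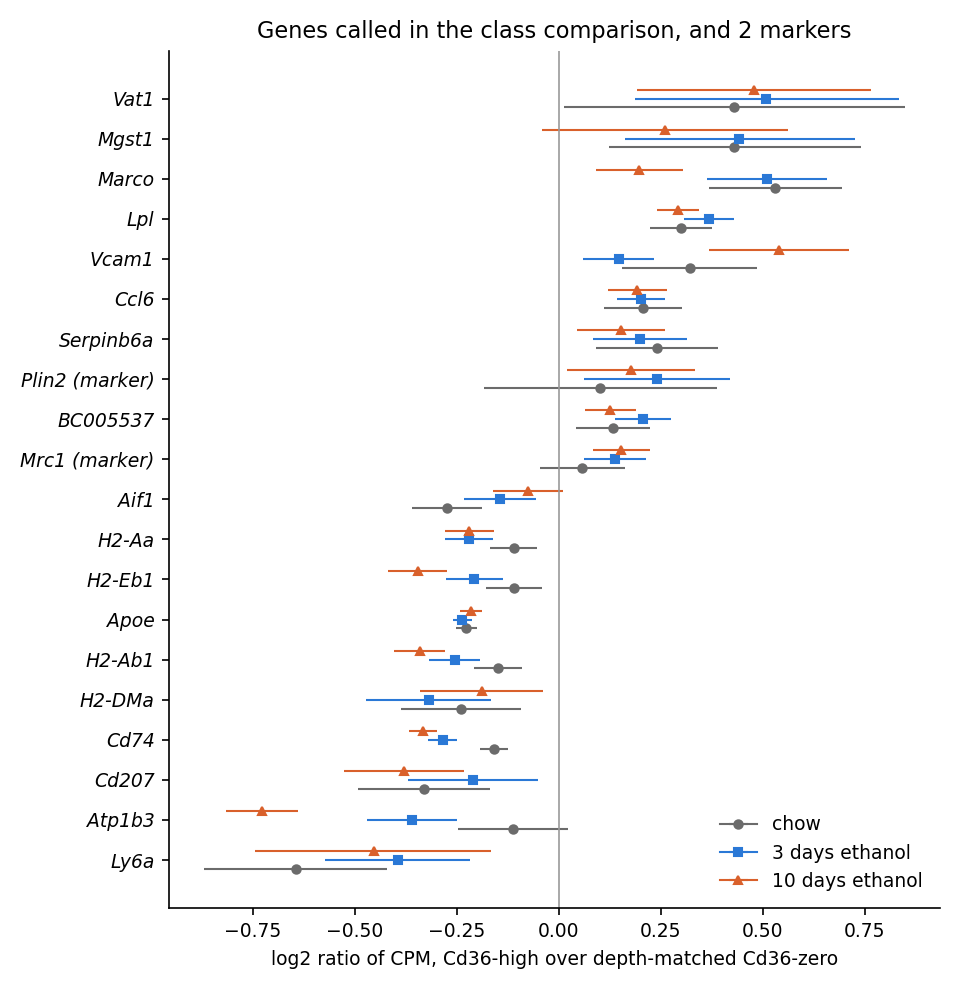
Log2 ratio of CPM in Cd36-high over depth-matched Cd36-zero Kupffer barcodes (x axis) in each library for the 18 genes called and named by the rule and the markers Plin2 and Mrc1; bars are 95% counting intervals. The 3 symbols of each gene lie on the same side of 0, Lpl between ratios of 1.22 and 1.29 and Apoe between 0.849 and 0.862.

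Apoe (ENSMUSG00000002985, chromosome 7, 19696109 to 19699188), the apolipoprotein that macrophages secrete with effluxed cholesterol, fell in Cd36-high barcodes. Its level was 11608 CPM in members against 13586 in partners on chow, 11120.2 against 13101 at 3 days and 8446 against 9802 at 10 days. The members were lower in each library by close to the same ratio, 0.854 (0.839 to 0.870), 0.849 (0.835 to 0.863) and 0.862 (0.846 to 0.878). The log2 difference was -0.23 (SE 0.03, edgeR adjusted p = 2.77e-06), and it ranged from -0.24 to -0.22 when 1 library was left out.

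Of 10 genes of MHC class II presentation, 8 were tested and 5 fell in edgeR. All 8 were below 0, 6 of them in 3 of 3 libraries, and the 3 without a call had an unadjusted p above 0.05, with a median log2 difference of -0.25 against -0.00 over all genes. The invariant chain Cd74 stood at 7021 against 7837 CPM on chow, 5159 against 6286 at 3 days and 4610 against 5804 at 10 days (log2 -0.27, SE 0.03, adjusted p = 1.64e-06). Each library was lower in members, and the classes overlapped across libraries. The chains H2-Ab1 (-0.25, adjusted p = 1.23e-05), H2-Eb1 (-0.23, adjusted p = 0.00037) and H2-Aa (-0.19, adjusted p = 0.000939) and the peptide exchange factor H2-DMa (-0.25, adjusted p = 0.00353) made up the rest of the calls. H2-Ab1, for example, stood at 2290 against 2539, 1600 against 1909 and 1452 against 1839 CPM. DESeq2 called 3 genes of the list and limma, on mean log values per barcode, called 1. The UMIs were more concentrated in the partners, where the 5 richest barcodes held 13.9%, 10.8% and 8.37% of the H2-Ab1 UMIs, against 8.22%, 6.54% and 5.08% in members. For Cd74 these shares were 10.0%, 8.75% and 6.75% in partners and 6.22%, 4.74% and 3.43% in members, and 1 chow partner held 503 Cd74 UMIs.

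The summed markers of monocytes, a cell type that also carries class II, were lower in the members of each library, by little on chow. Dendritic cell markers were lower in members on chow and near the level of the partners at 3 and 10 days. The part of monocyte or dendritic RNA in the class II differences was not tested. Of 9 monocyte genes 6 were tested, 4 were below 0 and 2 above, and edgeR called 2 while DESeq2 and limma called 0. Plac8 held most of the UMIs of the list, 718 of 818 in members and 725 of 845 in partners on chow. The summed monocyte list stood at 418 against 433 CPM on chow, 368 against 431 at 3 days and 246 against 308 at 10 days, and the dendritic list at 31.2 against 47.7, 27.1 against 26.0 and 27.4 against 27.7 CPM. When barcodes with a UMI of the monocyte list other than Plac8 or of the dendritic list were left out, a step chosen after the data were seen, 263, 490 and 571 pairs remained and Cd74 was still called (log2 -0.17). H2-Ab1 (-0.09, adjusted p = 0.419), H2-Eb1 (-0.06, adjusted p = 0.857), H2-Aa (-0.08, adjusted p = 0.699) and H2-DMa (-0.17, adjusted p = 0.383) were then no longer called in edgeR. Without the 10-day library H2-Eb1 (-0.17, adjusted p = 0.179) and H2-Aa (-0.17, adjusted p = 0.113) lost their calls, and without the 3-day library H2-DMa did (-0.21, adjusted p = 0.118).

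Among the other genes that fell were 4 of macrophage surface, transport and cytoskeleton. Atp1b3, the beta-3 subunit of the sodium-potassium pump, stood at 439 against 475 CPM on chow, 501 against 642 at 3 days and 665 against 1100 at 10 days (log2 -0.45, SE 0.06, edgeR adjusted p = 2.95e-06). The ratio was 0.925 (0.842 to 1.02) on chow, 0.780 (0.723 to 0.842) at 3 days and 0.604 (0.569 to 0.642) at 10 days, and the log2 difference was -0.26 without the 10-day library. Ly6a, a GPI-anchored surface protein induced by interferon, stood at 139 against 217, 192 against 253 and 68.4 against 93.7 CPM (-0.50, SE 0.07, adjusted p = 1.23e-05). The members were lower in each library for both genes.

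Cd207 (langerin), a C-type lectin of Kupffer cells, stood at 290 against 364 CPM on chow, 253 against 293 at 3 days and 267 against 348 at 10 days (log2 -0.32, SE 0.05, edgeR adjusted p = 0.000258). It was lower in the members of each library. Across libraries the highest member value (290, on chow) and the lowest partner value (293, at 3 days) were nearly equal. Aif1, which encodes an actin-binding protein of macrophages, was at -0.17 (SE 0.04, adjusted p = 0.0264), and it was not called without the chow (adjusted p = 0.41) or the 3-day library (0.0618).

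When each library in turn was left out, 8 of the 18 genes named by the rule were called in edgeR in all 3 fits. These were Lpl and Marco among those that rose, and Apoe, Cd74, H2-Ab1, Atp1b3, Ly6a and Cd207 among those that fell. Of these, Atp1b3 was not called by DESeq2 (-0.41, adjusted p = 0.999) or limma (-0.16, adjusted p = 0.285), nor with a mitochondrial limit of 5% (-0.31, edgeR adjusted p = 0.305), and Ly6a (-0.12, adjusted p = 0.106) and H2-Ab1 (-0.13, adjusted p = 0.285) were not called by limma.

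Depth matching bore on these values. Against all Kupffer barcodes with 0 Cd36 UMIs, which were shallower, Lpl was at 0.14 and Marco at 0.20 and both were called in edgeR, while Apoe (-0.08, adjusted p = 0.127) and Cd74 (-0.08, adjusted p = 0.131) were not. With a mitochondrial limit of 5%, leaving 149, 270 and 106 pairs, Lpl was at 0.56, Marco at 0.76 and Cd74 at -0.46, each called. Without barcodes holding 2 or more UMIs of any other cell type's list, only 10, 26 and 72 pairs remained; Lpl (0.65, edgeR adjusted p = 0.0378) and Atp1b3 (-0.74, adjusted p = 0.0378) were called there, and Apoe was at -0.0071 and Cd74 at -0.21, not called.

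Levels were also followed over the number of Cd36 UMIs, to show barcodes on either side of the limit. Here all Kupffer barcodes of each class were used and weighted to 1 depth profile over 5 depth bins. Lpl stood at 1434 CPM in barcodes with 0 Cd36 UMIs, 1514 with 1, 1710 with 2, 1788 with 3 or 4 and 2017 with 5 or more on chow. At 3 days the values were 1895, 2080, 2131, 2359 and 2548 CPM, and at 10 days 2377, 2515, 2890, 2711 and 3151 CPM. With counting SEs of 152, 259 and 230 CPM at 5 or more, the rank of that class over the next was not resolved. By value, Lpl was lowest with 0 Cd36 UMIs and highest with 5 or more in each library, and barcodes with 1 UMI, outside the class, lay above those with none.

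Ccl6, Vcam1 and Marco did not have that order in every library: Ccl6 on chow stood at 870, 842, 983, 923 and 915 CPM over the same classes, Vcam1 at 3 days at 938, 1011, 1021, 1037 and 941 CPM, and Marco at 3 days at 324, 352, 395, 366 and 379 CPM. Apoe went the other way at its end points, from 13067 CPM with 0 Cd36 UMIs to 9011 with 5 or more on chow, from 12109 to 9229.9 at 3 days and from 9464 to 7083 at 10 days. Atp1b3 went from 575 to 371, from 728 to 385 and from 1174 to 507 CPM. Mrc1 went from 839 to 1006 CPM on chow, from 1287 to 1392 at 3 days and from 1343 to 1418 at 10 days, with counting SEs of 122, 209.8 and 144 CPM at 5 or more. Timd4, a receptor for dying cells that marks long-lived Kupffer cells, went from 484 to 381, from 444 to 359 and from 456 to 455 CPM, and between the matched classes it stood at a log2 difference of 0.01 (SE 0.04, edgeR adjusted p = 0.992).

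**Figure D3:**
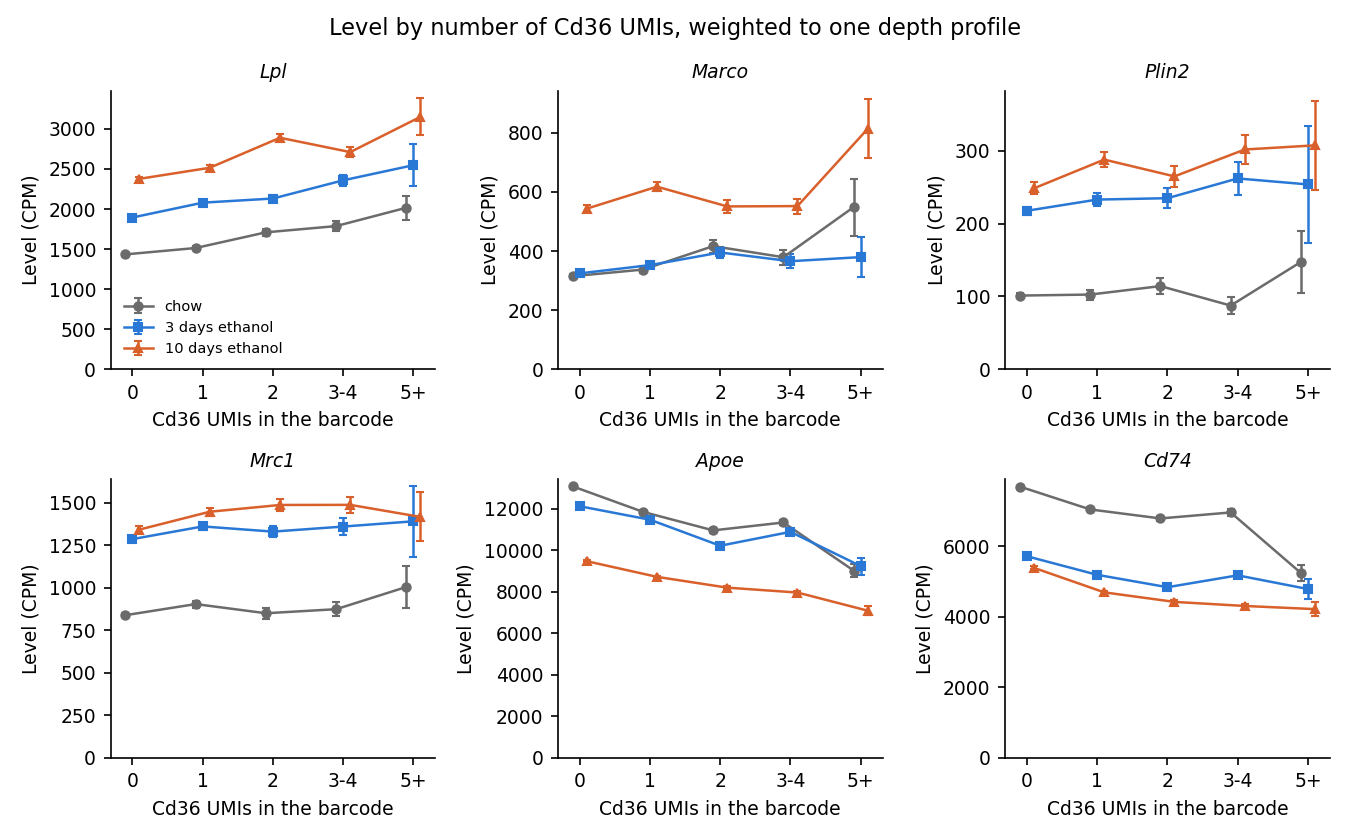
Level (CPM, y axes from 0) of 6 genes in Kupffer barcodes with 0, 1, 2, 3 to 4, or 5 and more Cd36 UMIs (x axes), weighted to one depth profile in each library; bars are the counting SE. By value, Lpl is highest and Apoe and Cd74 are lowest with 5 or more Cd36 UMIs in each library, while Plin2 and Mrc1 have wide errors there. For Lpl and Cd74 the bars of that class overlap those of other classes with Cd36 UMIs at 3 and 10 days. The rightmost class holds 23, 45 and 50 barcodes.

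Apart from Lpl, genes of fatty acid handling were not called. Of 18 genes of fatty acid uptake and activation, 15 were tested, 11 were higher, 1 (Lpl) was called, and the median log2 difference was 0.05. Over all 9357 genes 4657 were above 0 and 0.267% were called. The lysosomal acid lipase Lipa was at 0.09 (SE 0.05) and the lipoprotein receptor Lrp1 at 0.05 (SE 0.04), both higher in 3 of 3 libraries and neither called. Gpihbp1, which anchors Lpl on capillary endothelium and is named here after its value was seen, was at 1.15 (SE 0.27, edgeR adjusted p = 0.0525), with 18.9 against 5.64 CPM on chow, 22.5 against 5.44 at 3 days and 10.4 against 11.3 at 10 days. Without barcodes carrying a UMI of the core endothelial genes other than Stab2 it was at 0.12.

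Of 12 tested genes of the lipid droplet, 0 were called and the median was -0.01; the lipase Pnpla2, which opens droplet triglyceride, was at -0.20 (SE 0.10) and lower in 3 of 3 libraries. Of 23 tested genes of fatty acid oxidation 0 were called (median 0.01), and of 17 PPAR pathway genes 0 were called (median 0.04). At an unadjusted p under 0.05 edgeR had 2 higher and 1 lower in the droplet list, 0 in the oxidation list and 1 higher in the PPAR list, and DESeq2 and limma called 0 in each of the 3. Over all genes tested 0.267% were called, so 0 calls in lists of this size lies near that share and does not set these genes apart.

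Sterol pathways were mixed. Of 20 tested targets of LXR, the oxysterol receptor, Lpl rose, Apoe fell and the median was 0.05; the desaturase Scd1 stood at 113 against 90.2, 138 against 106 and 272 against 236 CPM, higher in 3 of 3 libraries with a log2 difference of 0.27 (SE 0.07) just outside the limit in edgeR (adjusted p = 0.0535). Of 16 tested SREBP2 targets of cholesterol synthesis 0 were called (median 0.04), Hmgcs1 standing at 0.51 (SE 0.19, adjusted p = 0.564). Of 15 tested genes that work with Cd36 in signalling, palmitoylation or the membrane, 0 were called and 11 were lower (median -0.08), among them the tetraspanin Cd81 at -0.10 (SE 0.04) and the endotoxin receptor Tlr4 at -0.20 (SE 0.10). At an unadjusted p under 0.05 edgeR had 2 higher in the SREBP2 list and 1 lower among the Cd36 partners, and DESeq2 and limma called 0 in both.

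Of 15 tested scavenger receptors other than Cd36, Marco was the 1 call in edgeR (3 higher and 0 lower at an unadjusted p under 0.05); 14 were above 0, 5 of them in 3 of 3 libraries, with a median of 0.05 against -0.00 over all genes. Msr1 was at 0.13 (SE 0.05), higher in 3 of 3 libraries and not called. Of 29 tested Kupffer identity genes, Marco rose and Cd207 fell, 18 were above 0 and the median was 0.02. Of 25 tested lysosome genes 0 were called in edgeR (6 higher and 2 lower at an unadjusted p under 0.05), 0 in DESeq2 and 4 in limma, and 19 were above 0 (median 0.04), with the proteases Ctsd at 0.14 (SE 0.03, edgeR adjusted p = 0.072; called in 9 of 20 alternatives) and Ctsl at 0.15 (SE 0.05, adjusted p = 0.352), both higher in 3 of 3 libraries. Of 17 tested genes of the lipid-associated macrophage programme, which includes Lpl, edgeR called Lpl alone (4 higher and 1 lower at an unadjusted p under 0.05, median 0.09), DESeq2 called 1 and limma 3.

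Response programmes held no calls in edgeR, where 0.267% of all genes tested were called. Medians were -0.06 for 26 interferon genes, -0.05 for 24 inflammatory genes, -0.09 for 19 immediate-early genes, -0.05 for 20 proliferation genes, -0.05 for 26 oxidative phosphorylation genes, -0.03 for 17 glycolysis genes, 0.05 for 14 genes of alternative activation, 0.03 for 19 of haem and iron and 0.04 for 13 of dying-cell uptake. At an unadjusted p under 0.05 these lists held 0 higher and 1 lower, 2 and 4, 0 and 4, 0 and 3, 0 and 2, 0 and 0, 1 and 0, 1 and 0, and 0 and 0 genes in the same order. DESeq2 called 0 in these lists, and limma called 1, in the haem and iron list. Below 0 in edgeR were 19 interferon, 15 inflammatory, 15 immediate-early, 16 proliferation, 21 oxidative phosphorylation and 9 glycolysis genes. In that order 5, 6, 6, 9, 11 and 2 genes were lower in all 3 libraries. Above 0 were 10 genes of alternative activation, 12 of haem and iron and 11 of dying-cell uptake. Over all 9357 genes 4700 were below 0 and 14.2% were lower in all 3 libraries. Examples were the interferon gene Isg15 at -0.17 (SE 0.10), the cytokine Il18 at 0.34 (SE 0.12) and the early transcription factors Jun at -0.21 (SE 0.08) and Egr1 at -0.33 (SE 0.15).

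Endothelial markers differed between the classes at low levels. Of 22 endothelial genes, 15 were tested, 14 were above 0, and the median log2 difference was 0.56 against -0.00 over all genes. At an unadjusted p under 0.05 edgeR had 6 of the 15 higher and 0 lower, against 3.07% and 3.51% of all genes. In all 3 libraries 8 of the 15 were higher, against 13.4% of all genes. The water channel Aqp1 was the 1 call (log2 0.96, SE 0.19, edgeR adjusted p = 0.00473). No endothelial gene was called by DESeq2, which gave Aqp1 no adjusted p, or by limma, and none of the 22 was at 0 UMIs in either class. Aqp1 stood at 40.9 against 9.74 CPM on chow, 28.4 against 11.7 at 3 days and 35.2 against 29.3 at 10 days, and 1 barcode held 25% of its UMIs in the chow members. Ehd3 was at 0.82 (SE 0.20, adjusted p = 0.0732) and Igfbp7 at 0.73 (SE 0.20, adjusted p = 0.159), while Stab2, which Kupffer barcodes of both classes held at 118 to 146 CPM, was at 0.10. Without the chow library Aqp1 was not called (0.62, adjusted p = 0.153), and without barcodes holding a core endothelial UMI it was at -0.024. The summed list stood at 415 against 303 CPM on chow, 383 against 266 at 3 days and 406 against 379 at 10 days, and 50.2% against 48.9%, 28.3% against 30.0% and 38.3% against 32.5% of barcodes held 2 or more of its UMIs.

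The summed endothelial level was highest in the barcodes richest in Cd36. The 20 endothelial genes other than Stab2 and Plpp3 summed to 119, 141, 218, 147 and 552 CPM in chow barcodes with 0, 1, 2, 3 or 4, and 5 or more Cd36 UMIs. The same classes held 108, 125, 188, 92.5 and 647 CPM at 3 days and 161, 160, 221, 118 and 281 CPM at 10 days. The level did not follow the count step by step, since barcodes with 3 or 4 Cd36 UMIs lay below those with 0 at 3 and 10 days. Barcodes with at least 3 of these endothelial UMIs numbered 1 of 23, 6 of 45 and 3 of 50 in the richest class. On chow that class held 85 such UMIs in all, so 1 barcode carried a large part of its level. In endothelial barcodes outside the Kupffer class, Cd36 itself stood at 429, 633 and 375 CPM, above its level over all Kupffer barcodes.

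**Figure D4:**
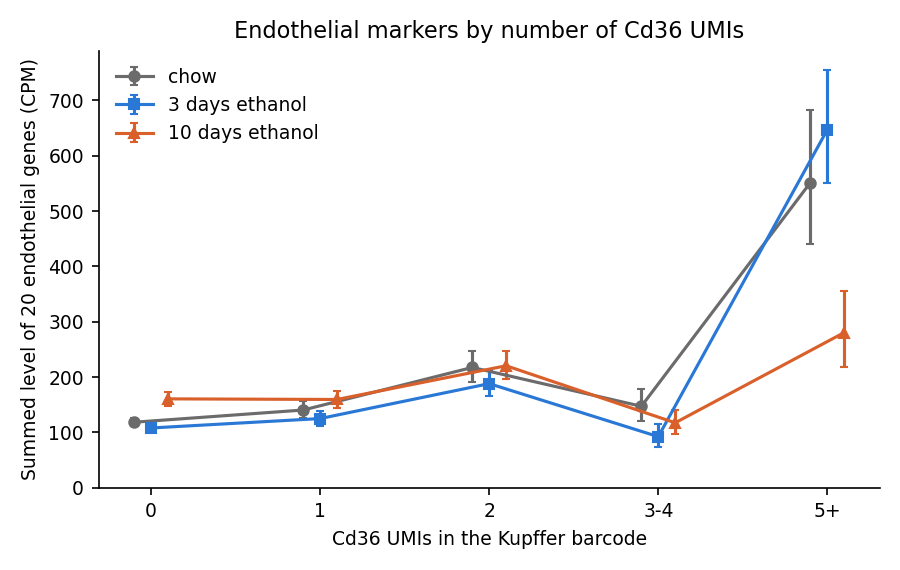
Summed level of 20 endothelial genes (CPM, y axis) in Kupffer barcodes by number of Cd36 UMIs (x axis), with exact Poisson 95% intervals. The intervals take UMIs as independent and do not cover their concentration in few barcodes. The classes from 0 to 4 Cd36 UMIs lie between 92.5 and 221 CPM and the class with 5 or more at 281 to 647 CPM; the library of 10 days is the lowest there.

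The calls on Lpl, Apoe and Cd74 were measured again without the barcodes that carried such markers. Without a UMI of the core endothelial genes, leaving 134, 308 and 339 pairs, Lpl was at 0.32, Marco at 0.26, Apoe at -0.28 and Cd74 at -0.30, each still called in edgeR. Without a UMI of the endothelial list other than Stab2 and Plpp3, leaving 186, 422 and 423 pairs, Lpl was at 0.29, Apoe at -0.24 and Cd74 at -0.22, each still called, while Marco (0.17, adjusted p = 0.256) and Ly6a (-0.29, adjusted p = 0.256) were not. The part of endothelial RNA in any of these differences was not tested, since a barcode with 0 counted UMIs of such markers can still hold endothelial RNA.

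The 2 monocyte genes called, Ccr2 and Cx3cr1, fell, and limma called neither. Ccr2, the receptor that draws monocytes from marrow, stood at 12.8 against 16.9 CPM on chow, 14.6 against 31.8 at 3 days and 4.25 against 25.3 at 10 days (log2 -1.30, SE 0.23, edgeR adjusted p = 0.00104). Cx3cr1, the fractalkine receptor, stood at 4.60 against 3.07, 8.76 against 17.2 and 3.48 against 28.5 CPM (-1.61, SE 0.31, adjusted p = 0.00353). Ccr2 was lower in 3 of 3 libraries and Cx3cr1 in 2 of 3. These sums came from few barcodes, 17 and 21 of 661 partners at 10 days, and without the 10-day library neither was called (Ccr2 -0.87, adjusted p = 0.0756; Cx3cr1 -0.65, adjusted p = 0.817).

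Other cell types contributed few further calls. The globins Hba-a1, Hba-a2 and Hbb-bs were called lower, but they were higher in members in 1 of 3 libraries, and 1 barcode held 92.8% of the Hbb-bs UMIs of the chow partners and 93.1% of those at 10 days. Hepatocyte genes, of which 19 were tested and 0 called, had a median of 0.14, and the fatty acid binding protein Fabp1 was at 0.43 (SE 0.14, edgeR adjusted p = 0.393). T and NK, B cell, neutrophil, dendritic and stellate lists held 0 calls. At an unadjusted p under 0.05 edgeR had 2 higher hepatocyte genes, 1 lower T and NK gene, 1 higher neutrophil gene and 0 in the other 3 lists, and DESeq2 and limma called 0 in all 6. The provisional gene Gm42418, also called higher, stood at a log2 difference of 0.20 and was not called without the 10-day library (0.15, adjusted p = 0.349).

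Members held more of the highest doublet scores than Kupffer barcodes with 0 Cd36 UMIs did. In the depth-matched pairs the median scores were 0.102 in members and 0.102 in partners on chow, 0.105 and 0.0986 at 3 days and 0.0868 and 0.0868 at 10 days. The shares were taken without depth matching, over all members and all Kupffer barcodes with 0 Cd36 UMIs, which were shallower. The part of depth in these shares was not tested. Of members 6.42%, 6.13% and 5.03%, against 3.38%, 3.30% and 3.64% of the shallower barcodes, lay in the 4% highest scores of their library. Without these barcodes 33 genes were called, 23 of them among the 25, and Aqp1 was not (0.74, edgeR adjusted p = 0.0806).

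Plin2, Lpl and Scd1 had the same order over the diets in both classes, lowest on chow and highest at 10 days. Plin2 in members was 2.17 times the chow level at 3 days (1.85 to 2.55) and 2.55 times at 10 days (2.19 to 2.99), and in the partners 1.97 (1.67 to 2.34) and 2.42 (2.06 to 2.86) times. Lpl in members was at 1.31 (1.25 to 1.37) and 1.69 (1.62 to 1.76) times chow, and in the partners at 1.25 (1.19 to 1.31) and 1.70 (1.62 to 1.78) times. Scd1 was at 1.22 (1.02 to 1.45) and 2.40 (2.06 to 2.80) times chow in members and at 1.18 (0.969 to 1.44) and 2.62 (2.21 to 3.11) times in partners. The intervals of the classes overlapped for each of these ratios, and the difference between classes in the change with diet was not tested.

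Some other called genes had a different course. Vcam1 peaked at 3 days in both classes, at 2.73 (2.51 to 2.98) times chow in members and 3.08 (2.80 to 3.39) times in partners, and lay below chow at 10 days, at 0.796 (0.716 to 0.886) and 0.684 (0.603 to 0.776) times. Ccl6 was at 2.08 times chow in members and 2.09 in partners at 3 days and at 1.33 and 1.34 at 10 days. Apoe at 10 days was at 0.728 and 0.722 times chow, and Cd74 at 0.657 (0.641 to 0.673) and 0.741 (0.724 to 0.758) times. Marco at 10 days was at 1.59 (1.46 to 1.73) times chow in members and 2.00 (1.81 to 2.22) times in partners, and Atp1b3 at 1.51 (1.39 to 1.64) and 2.32 (2.15 to 2.50) times. At 10 days the intervals of the classes were apart for Cd74, Marco and Atp1b3 and overlapped for Apoe, Ccl6 and Vcam1, and no test of these differences was made.

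**Figure D5:**
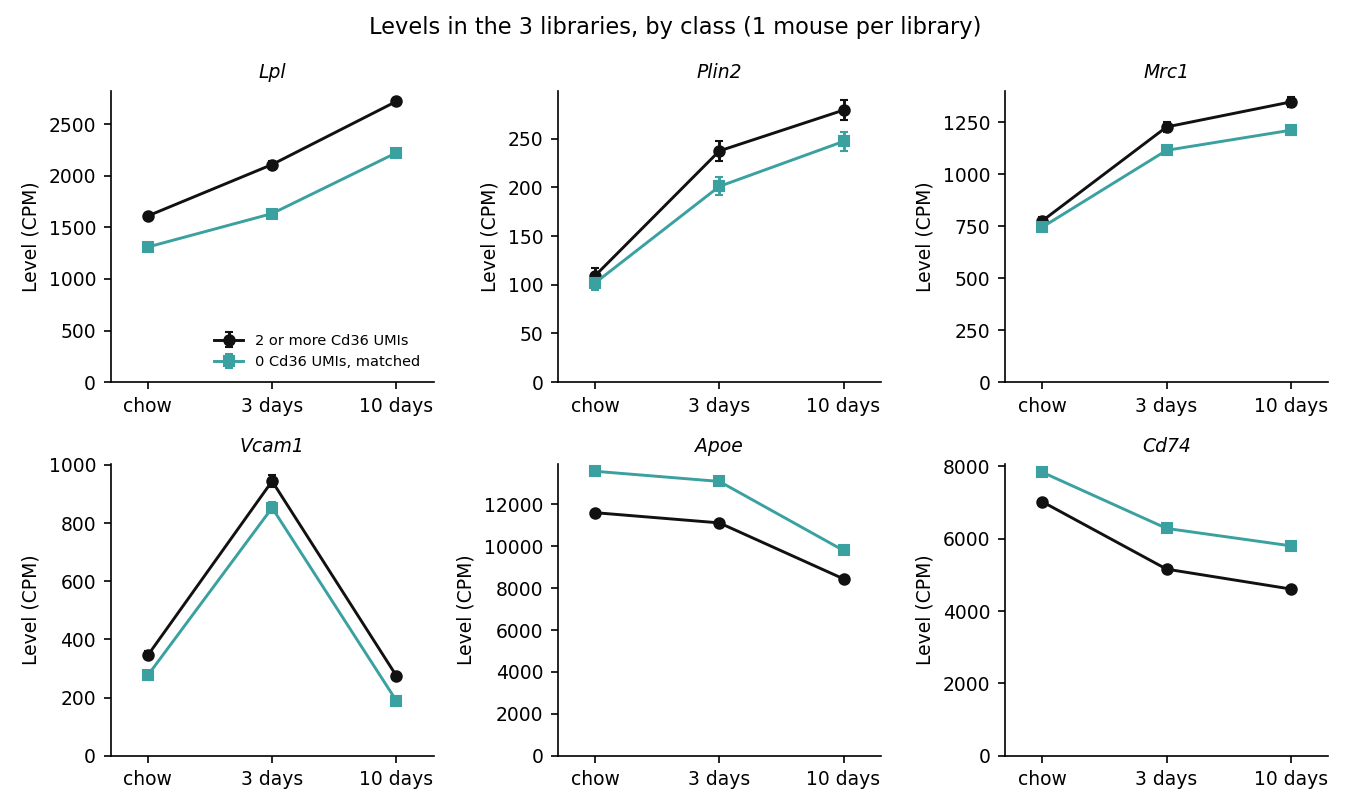
Level (CPM, y axes from 0) of 6 genes in Cd36-high barcodes and their depth-matched partners with 0 Cd36 UMIs in the 3 libraries (x axes), 1 mouse per library; bars are the counting SE. Lpl, Plin2 and Mrc1 are higher and Apoe and Cd74 lower in the members of each library, and both classes follow the same order over the diets.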

How the data were processed

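UMI counts per gene and barcode were deposited by the authors as unfiltered matrices, made with Cell Ranger 2.2.0 on GRCm38 (mm10) per the submitters' processing notes; the annotation release is not given in the sources used here. Coordinates come from GENCODE vM21 (GRCm38), in which 28339 of 28692 gene IDs were found. Each member was paired within its library with 1 Kupffer barcode with 0 Cd36 UMIs whose depth, Cd36 left out, lay within 10%. Counts were summed per library and class and tested with edgeR 4.0.16 (R 4.3.3; TMM, quasi-likelihood, library as block, genes with at least 10 counts in 3 of 6 sums, Benjamini-Hochberg adjustment); Cd36, the 5 Kupffer criterion genes and mitochondrial genes were not tested. The test was tried on simulated data. The block comes from the labels, since both sums of a pair are from 1 mouse. Intervals of ratios are exact conditional binomial. T and NK barcodes had at least 3 UMIs of their list, endothelial barcodes at least 5, both outside the Kupffer class. Named were Plin2, Mrc1 and up to 12 genes called in each direction, with 1 direction in 3 libraries and at least 20 CPM in 1 class, without ribosomal, provisional and other-cell-type genes, plus up to 4 members of each list; other genes are said to be so where named. No doublets were removed: Scrublet (scanpy 1.11.5) marked 5, 1 and 2 barcodes at its own limit, so the highest 4% of scores were left out as an alternative. Other alternatives were other scalings, DESeq2 1.42.0, limma 3.58.1, filters, pairings and barcode limits; limma and the omissions of barcodes with monocyte or dendritic UMIs or with endothelial UMIs other than Stab2 were chosen after seeing the data. Members and lists were chosen with earlier results of these data known.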

Additional observations from a re-analysis of the deposited data

Results flagged for a closer look

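The 3 globin genes called lower in Cd36-high barcodes lay on opposite sides in different libraries, with counting intervals that exclude a ratio of 1. Hbb-bs was at 0.293 times the level of the partners on chow, 2.53 times at 3 days and 0.0871 times at 10 days. Hba-a1 was at 0.346, 2.16 and 0.0888 times, and Hba-a2 at 0.394, 2.34 and 0.109 times. The difference between libraries was not tested, since each diet has 1 library, and 1 barcode held 78.7% of the Hbb-bs UMIs of the chow members, 92.8% of those of the chow partners, 78.4% of those of the 3-day members and 93.1% of those of the 10-day partners.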

How the results depend on the processing

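The 25 calls became 12 with DESeq2, which called 11 of the 18 to which it gave an adjusted p, 221 (179 higher) with all Cd36-zero barcodes unmatched for depth, and 3 without barcodes holding 2 or more UMIs of another cell type list, where 10, 26 and 72 pairs remained. Without the replicate block, which ignores that both sums of a pair come from 1 library, 0 were called in edgeR (109 at an unadjusted p under 0.05; DESeq2 with the block 12). Leaving out 1 library gave 19 to 25 calls, and 13 of the 25 without the 10-day library. Counts under the other settings were 17 to 33, and limma on mean log values per barcode called 24, of which 8 were among the 25. Signs turned with unmatched barcodes for BC005537 (-0.11), Mrc1 (-0.12) and Gm42418 (-0.039); without barcodes of another cell type list for H2-Ab1 (0.11) and H2-Eb1 (0.072); with at least 3 Cd36 UMIs for Hba-a1 (0.92), Hba-a2 (1.48) and Hbb-bs (0.67); without monocyte or dendritic UMIs for Hba-a1 (0.82), Hba-a2 (1.03) and Hbb-bs (0.94); in limma for Hba-a2 (0.00245); and without core endothelial UMIs for Aqp1 (-0.024). Signs also turned, with no call on either side, for Plin2 (-0.069) and Msr1 (-0.098) without barcodes of another cell type list, Cd81 (0.020) and Isg15 (0.037) with unmatched barcodes, Pnpla2 (0.032) with a mitochondrial limit of 5% and Ehd3 (-0.044) without core endothelial UMIs. Calls were gained for Ctsd in 9 of 20 alternatives, Scd1 in 3 of 20, Ehd3 in 3 of 17, Gpihbp1 in 3 of 16, Il18 in 1 of 18 and Igfbp7 in 1 of 16. Lpl stayed called in every alternative with the block. Shares on chow, at 3 and at 10 days were 2.27%, 5.03% and 8.24% at 1500 UMIs, 6.66%, 13.3% and 20.9% at 3000 UMIs, 5.48%, 6.31% and 11.2% for 3 or more Cd36 UMIs, 11.4%, 13.5% and 21.8% without core endothelial UMIs, and 13.7%, 16.3% and 27.6% with a mitochondrial limit of 5%. The cause of these shifts was not tested. With 1 mouse per diet and few UMIs per barcode, small differences and differences between diets could not be resolved.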
